A study of Mus musculus with 3 samples.

Results

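The receptor chains described here are those for IL-12, IL-18, IL-1 and IL-33 on CD4 T cells. They were chosen as a list of 7 genes, Il12rb1, Il12rb2, Il18r1, Il18rap, Il1r1, Il1r2 and Il1rl1, with every probe set whose only gene symbol is one of these. The list found 8 probe sets for 6 of the 7 genes, out of 45037 probe sets and 18193 genes with a symbol. No probe set carried the symbol Il1rl1, the chain ST2 that binds IL-33, so its level was not analysed here.

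CD4+CD25- T cells were purified from lymph node and spleen of BALB/c females aged 6 to 8 weeks. All mice lacked T-bet, the Th1 transcription factor encoded by Tbx21, and Stat6, which relays IL-4 signals in Th2 cells. Every culture received plate-bound anti-CD3 (5 µg/ml) and anti-CD28 (1 µg/ml) for 2 days. The cultures differed in the cytokines added, which were IL-6 (10 ng/ml) with TGFβ (5 ng/ml), IL-6 (10 ng/ml) with IL-23 (10 ng/ml), or TGFβ alone (5 ng/ml). The study set the IL-6/TGFβ cells against each of the others to find genes tied to IL-10. Each condition has 1 Affymetrix array and no replicate, so ratios describe 3 arrays and carry no p-value, and a wild-type culture was not analysed here.

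IL-12 and IL-23 share the chain IL-12Rβ1, which pairs with IL-12Rβ2 to bind IL-12 and with the IL-23 receptor chain to bind IL-23. IL-18, IL-1 and IL-33 bind receptors of another family, in which a binding chain recruits an accessory chain and both signal through the adaptor MyD88. In Th1 cells IL-12 and IL-18 together raise interferon-γ, in Th17 cells IL-1 acting through IL-1R1 supports IL-17, and IL-1R2 binds IL-1 without signalling.

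Levels are quantile-normalized intensities in arbitrary units and cannot be compared between genes. A floor at 42.6, below which 95% of the values for genes of other tissues lay, marks the level below which a value has no order. A ratio with 1 array below the floor is a lower bound on the size of the difference. A gene is called higher or lower where 2 arrays differed at least 2-fold and the brighter one exceeded the floor. The error given, the probe-set SD, is that of the log2 ratio of 1 probe set. It was estimated from the median absolute deviation of differences between 2 probe sets of the same gene, scaled to 1 probe set. It was 0.24 between IL-6/TGFβ and TGFβ, 0.30 between IL-6/TGFβ and IL-6/IL-23, and 0.31 between IL-6/IL-23 and TGFβ. A plain SD of the same differences gave 0.27, 0.33 and 0.35. The probe-set SD leaves out differences between cultures, mice and arrays.

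The deposited intensities had a median of 28.1 for IL-6/TGFβ, 17.8 for IL-6/IL-23 and 35.8 for TGFβ. Of 12 T cell markers with a probe set, 12 were above the floor on every array, and Cd4 read 716 with IL-6/TGFβ, 904 with IL-6/IL-23 and 1333 with TGFβ. Cd28 was instead brightest with IL-6/IL-23, at 2840, 5316 and 1770 on the arrays in the same order. It was called higher for IL-6/IL-23 over TGFβ (1.59), and no other T cell marker was called. Both targeted genes gave signal, since Stat6 read 223, 191 and 259 and Tbx21 read 118, 205 and 190 on the IL-6/TGFβ, IL-6/IL-23 and TGFβ arrays. The labels do not give the deleted parts, and a probe set outside them checks nothing. Of 11 myeloid and neutrophil markers 8 were below the floor on all arrays, among them Lyz2, Itgam and S100a8, and of 7 mast cell and basophil markers 6 were, among them Fcer1a and Cpa3. The markers above the floor somewhere were Csf1r, Cd68 and Mpeg1 of the first list and Kit of the second. Of these, Mpeg1 and Kit were called in at least 1 comparison, and their values stand beside Il18r1.

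Upstream sequence is shown for the 3 chains whose RefSeq window (GRCm38.p6) holds bases outside every annotated gene span. Il18r1 and Il18rap are the chains that were dimmest with IL-6/TGFβ after normalization, which for Il18r1 was not so as deposited. Il12rb2 is the chain particular to the IL-12 receptor. Capitals mark a match to TTCNNNGAA or TTCNNNNGAA, the palindromic letters that STAT proteins bind, which read alike on both strands.
Il18r1, chr1:40465419-40465551, plus strand: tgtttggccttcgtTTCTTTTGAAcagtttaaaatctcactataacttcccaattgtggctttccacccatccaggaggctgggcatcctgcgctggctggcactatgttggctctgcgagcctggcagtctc
Il18rap, chr1:40515112-40515361, plus strand: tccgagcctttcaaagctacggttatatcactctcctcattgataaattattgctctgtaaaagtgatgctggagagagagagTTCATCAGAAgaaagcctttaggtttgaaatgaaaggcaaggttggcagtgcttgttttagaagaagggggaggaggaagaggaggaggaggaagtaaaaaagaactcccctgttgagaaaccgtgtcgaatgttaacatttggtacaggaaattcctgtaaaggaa
Il12rb2, chr6:67376294-67376438, minus strand: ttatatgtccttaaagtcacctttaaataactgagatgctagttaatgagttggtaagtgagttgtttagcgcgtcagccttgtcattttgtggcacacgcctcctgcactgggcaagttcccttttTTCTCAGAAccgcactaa
The match in both IL-18 receptor genes has the 4-base spacer, the form that Stat6 prefers, at 109 bases before the start of Il18r1 and 157 bases before that of Il18rap. Windows of the same length and place hold this letter pattern in 2.79% and 5.85% of 32851 RefSeq windows, for the Il18r1 and the Il18rap length. The match in Il12rb2 has the 3-base spacer, TTCTCAGAA, which 4.24% of windows of its length and place hold. The printed windows hold no match to the other spacer, and a match is a description of letters, not of binding.

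**Figure D1:**
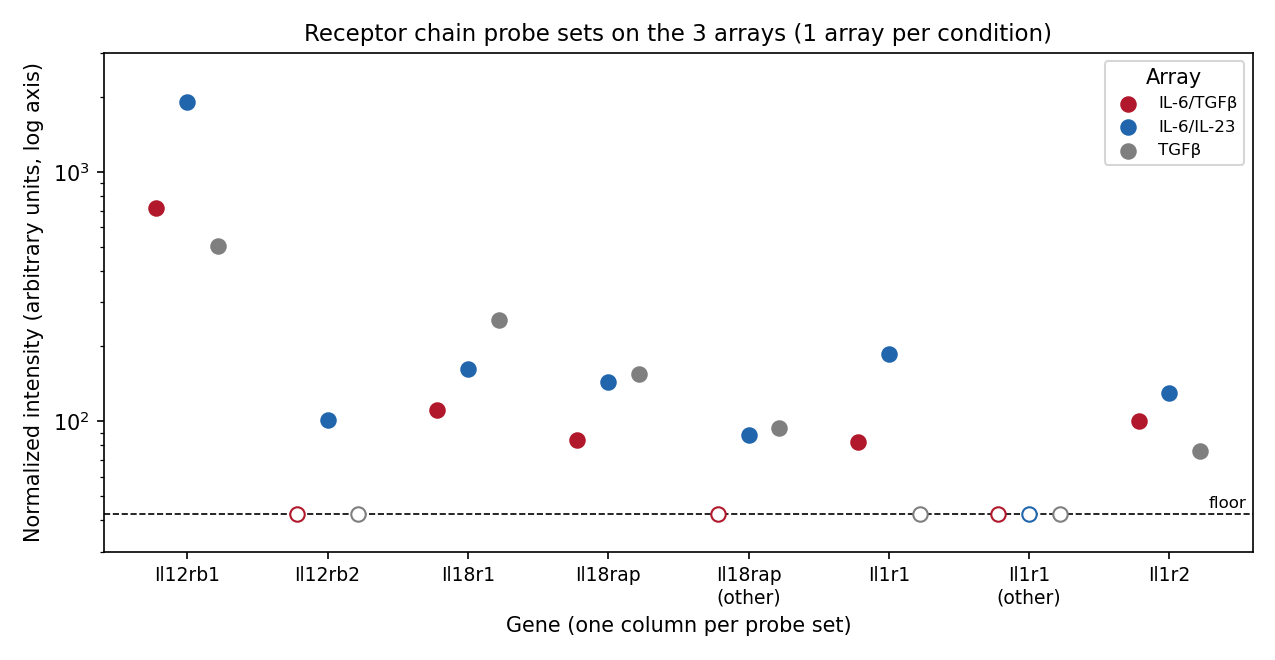
Normalized intensity (log axis, arbitrary units) of the 8 probe sets on the IL-6/TGFβ, IL-6/IL-23 and TGFβ arrays, 1 point per array. Open points, drawn at the floor of 42.6 (dashed line), were below it. Il12rb1, Il12rb2 and Il1r1 have their highest point with IL-6/IL-23, and Il18r1 has its highest with TGFβ.

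The IL-12 receptor chains were both brightest with IL-6/IL-23. Il12rb1, the chain shared with the IL-23 receptor, read 718 with IL-6/TGFβ, 1908 with IL-6/IL-23 and 504 with TGFβ. It was thus highest in the culture that had IL-23 and lacked TGFβ, and the parts of these cannot be told apart. The other arrays were less than 2-fold apart, with a log2 ratio of 0.51 for IL-6/TGFβ over TGFβ. The deposited intensities gave the same order, at 718, 1418 and 696, although IL-6/IL-23 had the lowest median of the 3 arrays. On each array Il12rb1 lay among the brighter probe sets, at percentile 89.7 with IL-6/TGFβ, 95.9 with IL-6/IL-23 and 86.5 with TGFβ.

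Il12rb2, the signalling chain that makes the receptor specific for IL-12 and that T-bet is known to raise in Th1 cells, was close to the limit of detection. It read 40.4 with IL-6/TGFβ, 101 with IL-6/IL-23 and 39.2 with TGFβ. Only its IL-6/IL-23 value exceeded the floor, so its ratios are bounds. Its IL-6/IL-23 value lay below the 99th percentile of the tissue-restricted probe sets, and with the floor set there it was not measured on any array. Its probe set ranked at percentile 58.0 with IL-6/TGFβ, 69.5 with IL-6/IL-23 and 57.5 with TGFβ.

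The IL-18 receptor chains had another order. Il18r1, which binds IL-18, read 111 with IL-6/TGFβ, 162 with IL-6/IL-23 and 254 with TGFβ. TGFβ alone gave the highest level, and each array with IL-6 was lower. As deposited the values were 115, 112 and 354, so the order of both arrays with IL-6 rests on the normalization while TGFβ alone was highest either way. The macrophage gene Mpeg1 was above the floor on the TGFβ array only, at 153, a level at least 3.59-fold above each other array. Kit, a mast cell marker, read 75.9 with IL-6/TGFβ, 16.3 with IL-6/IL-23, a value under the floor, and 110 with TGFβ. The summed level of the 11 myeloid and neutrophil markers was 225, 236 and 348, and that of the 7 mast cell and basophil markers 154, 74.3 and 183, on the IL-6/TGFβ, IL-6/IL-23 and TGFβ arrays. These sums include Mpeg1 and Kit, and most of the other values in them lay below the floor. Csf1r was instead brightest with IL-6/TGFβ, at 79.4, below the floor and 63.2. Cd68 exceeded the floor with IL-6/IL-23 only, at 49.4. The part of such cells in the Il18r1 values was not tested.

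Il18rap, the accessory chain that IL-18 signalling needs, was measured by 2 probe sets. The brighter one read 83.9 with IL-6/TGFβ, 144 with IL-6/IL-23 and 155 with TGFβ. The dimmer one read 19.0, below the floor, with IL-6/TGFβ, 88.2 with IL-6/IL-23 and 93.7 with TGFβ. After normalization both gave the lowest level with IL-6/TGFβ and nearly equal levels on the other arrays. As deposited the brighter one read 87.1, 99.3 and 218 and the dimmer one 20.6, 59.9 and 133, so the near equality of IL-6/IL-23 and TGFβ rests on the normalization, while IL-6/TGFβ was lowest either way. Cd8a, a marker of CD8 T cells, which can also carry the IL-18 receptor, read 80.2, 120 and 145 on the arrays in the same order. Cd8b1 read 104, 174 and 140. The NK cell receptor genes Klrk1 and Klrd1 were instead brightest with IL-6/TGFβ, Klrk1 at 66.4, 54.0 and below the floor, and Klrd1 at 53.0 and below the floor on both other arrays, and Ncr1 was below the floor throughout. None of these 5 markers was called in any comparison, and their summed level was 305, 376 and 341. The cells had been purified as CD4+. The part of such cells in the IL-18 receptor values was not tested, and in bulk RNA fewer cells of a type and less RNA per cell cannot be told apart.

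Of the IL-1 receptors, the signalling chain and the decoy were each measured. Il1r1, the chain that signals, read 82.8 in IL-6/TGFβ cells and 187 in IL-6/IL-23 cells, and it was below the floor with TGFβ alone at 4.56. It was therefore measured on both arrays with IL-6 and on neither probe set in cells given TGFβ alone. As deposited the intensities were 86.2, 130 and 6.45 on the same arrays. Its other probe set was below the floor on every array, at 0.19 with IL-6/TGFβ, 7.56 with IL-6/IL-23 and 6.28 with TGFβ, so a further probe set could not check the pattern.

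Il1r2, the decoy that captures IL-1, read 100.3 with IL-6/TGFβ, 129.8 with IL-6/IL-23 and 76.1 with TGFβ. Its levels on the 3 arrays lay within 2-fold of each other. The deposited intensities were 104, 89.1 and 109, so the order of its levels changed with the scaling and is not read here.

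With IL-6/TGFβ set against TGFβ, 0 of the 6 measured receptor genes were called higher and 1 was called lower. Over 9800 genes above the floor on at least 1 of these arrays, 2.85% were called higher and 2.28% lower. Il18r1 was the lower gene, at -1.20 on the log2 scale, 5.09 times the probe-set SD, and 100 of 8958 genes measured on both arrays had a lower ratio. The brighter Il18rap probe set stood at -0.89, short of 2-fold, and the dimmer one was at least 2.20-fold lower in IL-6/TGFβ cells. Il1r1 was at least 1.94-fold higher in IL-6/TGFβ cells, a bound just under the 2-fold rule. Il12rb1 (0.51) and Il1r2 (0.40) were less than 2-fold apart, at 2.16 and 1.69 times the probe-set SD, and Il12rb2 was below the floor on both arrays and has no ratio. The 5 genes that could be read had a median ratio of 0.40, against 0.03 over all genes. Without scaling Il18r1 (-1.63) and Il18rap (-1.33) were called lower, Il1r1 stood at 0.89 (a bound), and Il12rb1 (0.04) and Il1r2 (-0.06) were near 0. The median of the 5 was then -0.06, against -0.41 over all genes, so its sign turned with the scaling.

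**Figure D2:**
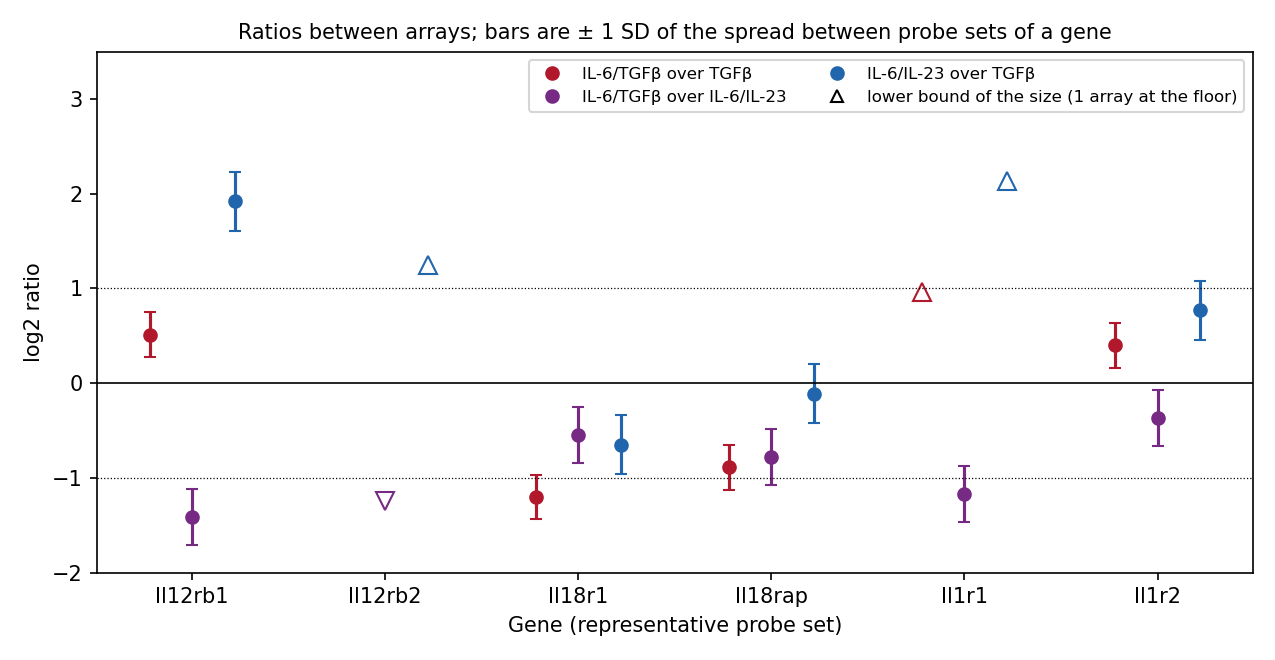
Log2 ratio (vertical axis) of each receptor gene's representative probe set in the 3 comparisons. Bars are ± 1 probe-set SD, open triangles are bounds with 1 array below the floor, and dotted lines mark 2-fold. Il12rb1 stands at -1.41 in the ratio of IL-6/TGFβ to IL-6/IL-23 and at 1.92 in that of IL-6/IL-23 to TGFβ.

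With IL-6/TGFβ set against IL-6/IL-23, 3 of the 6 genes were called lower and 0 higher. Over 9996 genes 3.83% were called lower and 4.05% higher. Il12rb1 stood at -1.41, 4.76 times the probe-set SD, and 123 of 8979 genes measured on both arrays had a lower ratio. Il1r1 stood at -1.17, or 3.96 times that SD. Il12rb2 was at least 2.37-fold lower in IL-6/TGFβ cells. The brighter Il18rap probe set stood at -0.78 and the dimmer one was at least 2.07-fold lower, while Il18r1 (-0.55) and Il1r2 (-0.37) were less than 2-fold apart. All 6 genes had a ratio below 0, with a median of -0.98, against -0.04 over all genes. Both TGFβ and IL-23 differ between these cultures, so their parts in any of these ratios cannot be told apart. Without scaling no gene of the 6 was called, and the ratios of Il12rb1 (-0.98), Il12rb2 (-0.56, a bound) and Il1r1 (-0.60) kept their sign, as did Il18rap (-0.19), whereas Il18r1 (0.03) and Il1r2 (0.23) did not. The median of the 6 was then -0.38, against 0.42 over all genes.

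With IL-6/IL-23 set against TGFβ, 3 of the 6 genes were called higher and 0 lower. Over 9894 genes 3.84% were called higher and 3.54% lower. Il12rb1 stood at 1.92, or 3.78-fold higher with IL-6/IL-23 and 6.16 times the probe-set SD, and 69 of 8949 genes measured on both arrays had a higher ratio. Il1r1 was at least 4.38-fold higher with IL-6/IL-23 and Il12rb2 at least 2.37-fold higher. Il1r2 stood at 0.77 and Il18r1 at -0.65, both under 2-fold. The probe sets of Il18rap gave -0.11 and -0.09, well inside the probe-set SD. The median ratio of the 6 genes was 1.01, against 0.06 over all genes. IL-6, IL-23 and TGFβ all differ between these cultures, so their parts in these ratios cannot be told apart. Without scaling Il12rb1 (1.03) and Il1r1 (1.48, a bound) were still called higher, Il12rb2 was not (0.33), and Il18r1 (-1.66) and Il18rap (-1.14) were called lower. The sign of Il1r2 turned (-0.29), and the median of the 6 was 0.02, against -0.83 over all genes. Scaling also set the balance over all genes. The share of called genes that were higher was 55.6% for IL-6/TGFβ over TGFβ (44.1% after median scaling, 15.3% without scaling), 51.4% against IL-6/IL-23 (37.8% and 89.4%), and 52.1% in the last pair (54.3% and 2.48%). The 3 comparisons share arrays, so their values for a gene are not independent of each other.

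**Figure D3:**
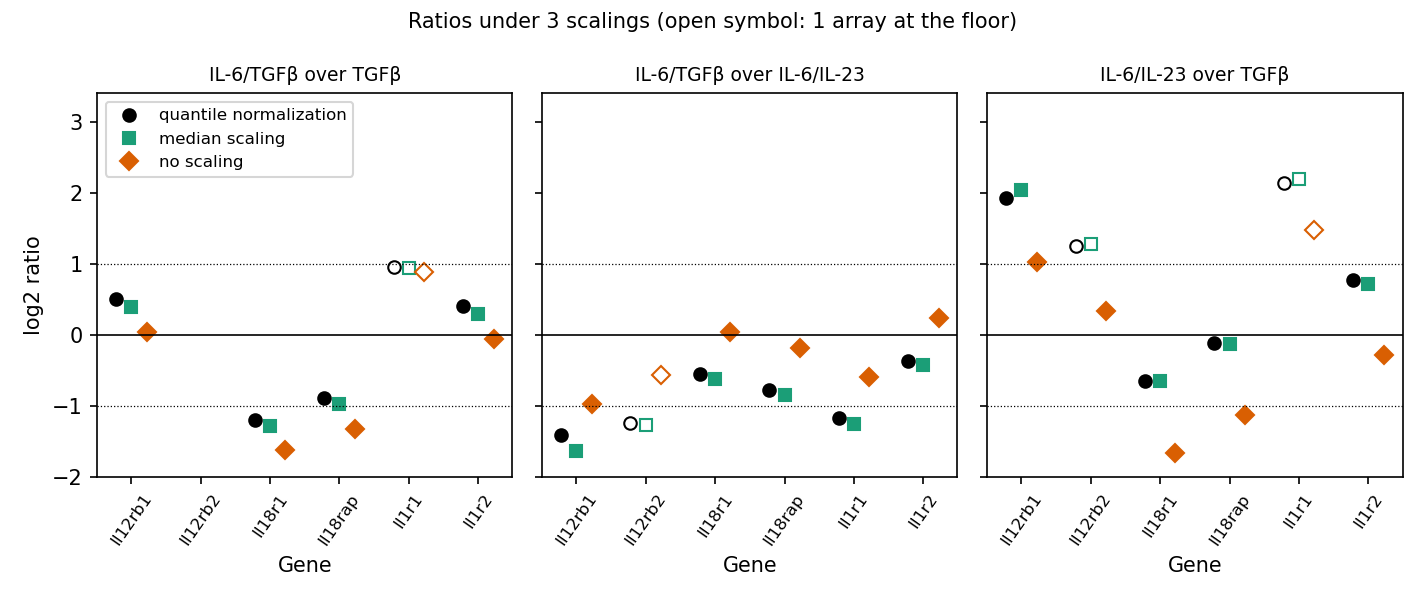
Log2 ratio of each receptor gene under quantile normalization, median scaling and no scaling, with 1 panel per comparison. Open symbols are bounds with 1 array below the floor, and dotted lines mark 2-fold. Median scaling stayed close to quantile normalization, and without scaling the ratios over IL-6/IL-23 stand higher and those of IL-6/IL-23 over TGFβ stand lower.

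Of the measured chains 4 lie on chromosome 1 in an unbroken run of 6 receptor genes with the order Il1r2, Il1r1, Il1rl2, Il1rl1, Il18r1, Il18rap in GRCm38.p6. The neighbours did not share 1 pattern. Il1rl2, which encodes the IL-36 receptor and lies beside Il1r1, read 53.6 with IL-6/TGFβ, 160 with IL-6/IL-23 and 60.0 with TGFβ. Like Il1r1 it was lower in IL-6/TGFβ than in IL-6/IL-23 cells (-1.58), and it was higher with IL-6/IL-23 than with TGFβ (1.41). These values come from a probe set of a kind that can be shared between transcripts. The other Il1rl2 probe set was below the floor on all arrays, so without the shared one Il1rl2 has no reading. Il18r1, further along the run, was instead highest with TGFβ alone, and Il18rap beside it was lowest with IL-6/TGFβ and nearly equal on the other arrays. The flanking gene Map4k4, a kinase gene next to Il1r2, read 834, 705 and 612, and Slc9a4, an ion exchanger gene next to Il18rap, was below the floor on every array.

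**Figure D4:**
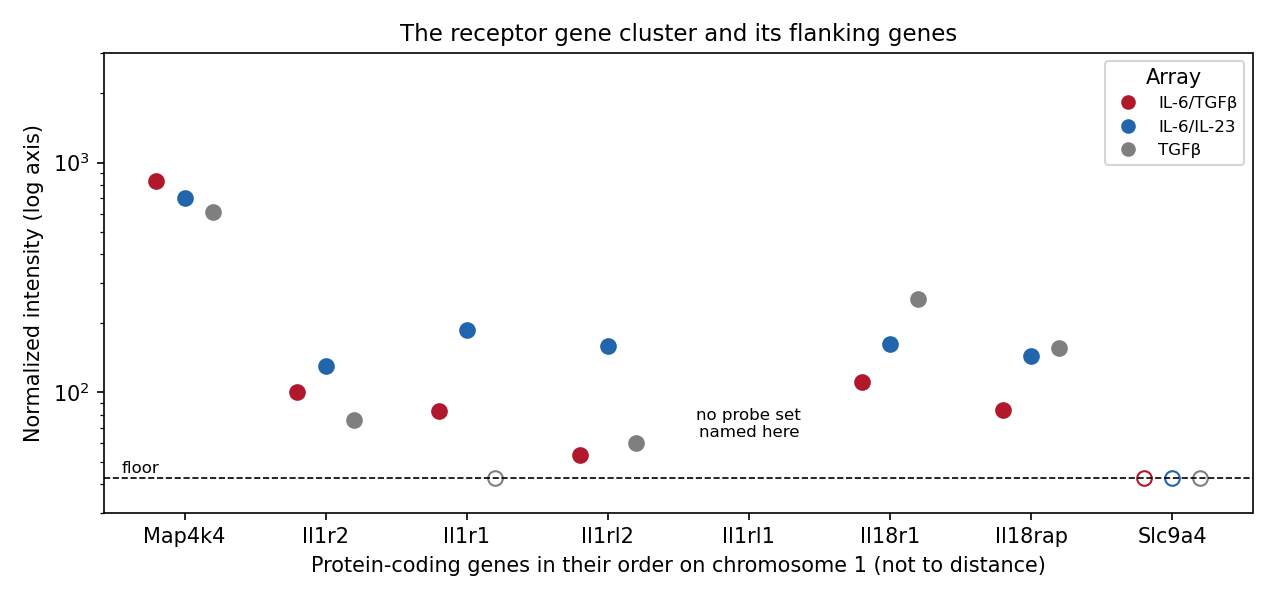
Normalized intensity (log axis) of the receptor genes and both flanking genes, in their order on chromosome 1 and not to distance, on the IL-6/TGFβ, IL-6/IL-23 and TGFβ arrays. Open points, drawn at the floor (dashed line), were below it, and heights of different genes cannot be compared. Il1r1 and Il1rl2 stand highest with IL-6/IL-23 and Il18r1 stands highest with TGFβ.

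The partners and signalling genes of the IL-12 receptor were counted next. Of 10 further genes of the IL-12 family with a probe set, 8 could be read for IL-6/TGFβ over TGFβ, and 1 was higher and 0 lower. In IL-6/TGFβ against IL-6/IL-23, 1 of 7 was higher and 2 were lower, and in IL-6/IL-23 against TGFβ, 1 of 8 was higher and 0 lower. Over all genes the higher and lower shares were 2.85% and 2.28%, 4.05% and 3.83%, and 3.84% and 3.54% in these 3 pairs. Stat4, the transcription factor through which IL-12Rβ2 signals, read 467 with IL-6/TGFβ, 1171 with IL-6/IL-23 and 386 with TGFβ. Its order was that of Il12rb1, with ratios of -1.33 for IL-6/TGFβ against IL-6/IL-23 and 1.60 between IL-6/IL-23 and TGFβ. Ebi3, a subunit of IL-27, was the other lower gene (-1.03), and Il6st, the shared chain of IL-6 family receptors, was higher in IL-6/TGFβ cells than in TGFβ (1.26) or IL-6/IL-23 cells (1.77). The kinases Jak2 and Tyk2 that serve the IL-12 receptor were within 2-fold in every comparison, Jak2 reading 1520 with IL-6/TGFβ, 2437 with IL-6/IL-23 and 1272 with TGFβ. The IL-12 subunit genes were at or near the floor, since Il12b was below it on every array and Il12a read 61.9 with TGFβ and was below it elsewhere.

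Among ligands, partner chains and antagonists of the IL-1 family, 17 had a probe set and 8 were below the floor on all arrays, among them Il18. None of the 6 that could be read was called for IL-6/TGFβ over TGFβ. In IL-6/TGFβ against IL-6/IL-23, 2 of 9 were lower and 0 higher, and in IL-6/IL-23 against TGFβ, 3 of 8 were higher and 0 lower, against 3.83% lower and 3.84% higher over all genes. Both counts include Il1rl2, whose only readable probe set is of the kind that can be shared between transcripts. Casp1, the protease that matures IL-1β and IL-18, read 153 with IL-6/IL-23 and was below the floor on the other arrays, a difference of at least 3.60-fold from each. Sigirr, an inhibitory member of the receptor family, read 772 with IL-6/TGFβ, 1377 with IL-6/IL-23 and 608 with TGFβ (1.18 for IL-6/IL-23 over TGFβ). Il1rap, the accessory chain that IL-1R1 and ST2 need, read 76.1, 98.6 and 89.2 on the arrays in this order and stayed within 2-fold.

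Of 20 genes that signal below these receptors, 18 were above the floor on every array. For IL-6/TGFβ over TGFβ, 1 was higher and 0 lower, and the other comparisons had 2 higher and 2 lower each. Over all genes 2.85% were higher and 2.28% lower in the first pair, and between 3.54% and 4.05% were called either way in the others. Myd88, the adaptor itself, read 1193 with IL-6/TGFβ, 1075 with IL-6/IL-23 and 845 with TGFβ. Irak2, a kinase of the receptor complex, read 120 with IL-6/TGFβ, 462 with IL-6/IL-23 and 184 with TGFβ (-1.95 for IL-6/TGFβ against IL-6/IL-23, and 1.33 between IL-6/IL-23 and TGFβ). Traf6, the ubiquitin ligase downstream of it, went the other way at 470, 177 and 486, and its 3 readable probe sets lay between 1.40 and 1.84 in the ratio of IL-6/TGFβ to IL-6/IL-23. Map3k8, a kinase of the NF-κB and MAP kinase pathways, stood at 1.02 for IL-6/TGFβ over TGFβ and at 1.83 for IL-6/IL-23 over TGFβ. Peli1 (-1.03) was the other gene lower in IL-6/TGFβ than in IL-6/IL-23 cells, though 2 further probe sets gave -0.49 and -0.57. The brightest Irak1 probe set gave 1.95 for this pair and its others lay between -0.51 and 0.19, so its probe sets disagree and its place among the 2 higher genes rests on 1 probe set.

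Helper T cell genes that go with these receptors were counted beside them. The shares called higher and lower over all genes were 2.85% and 2.28% for IL-6/TGFβ over TGFβ, 4.05% and 3.83% against IL-6/IL-23, and 3.84% and 3.54% between IL-6/IL-23 and TGFβ. Of 12 readable Th1 genes 1 was higher and 3 were lower in IL-6/TGFβ than in TGFβ cells, 1 was higher and 4 were lower than in IL-6/IL-23 cells, and 3 were higher and 2 lower in IL-6/IL-23 than in TGFβ cells. Ifng, the gene of interferon-γ that IL-12 and IL-18 raise, read 74.0 with IL-6/TGFβ, 229 with IL-6/IL-23 and 125 with TGFβ. Its ratio between the last 2 arrays (0.87) was not called. Cxcr3 read 136, 561 and 107, and it was 1 of the 3 higher genes of that pair, with Stat4 and Gzmb. The 2 lower ones were brightest with TGFβ alone, Lta at 5684, 1487 and 7534 and Nkg7 at 51.6, 51.5 and 230. Eomes was also brightest there, at 107, against 65.3 with IL-6/IL-23 and a value below the floor with IL-6/TGFβ. The Th1 genes thus did not share 1 order. Of 9 Th17 genes with a probe set, 6 were higher and 0 lower in IL-6/TGFβ than in TGFβ cells, 5 were higher and 0 lower than in IL-6/IL-23 cells, and 3 were higher and 4 lower in IL-6/IL-23 than in TGFβ cells. Il17a read 3211, 3273 and 498 on the IL-6/TGFβ, IL-6/IL-23 and TGFβ arrays. Il21 (2325, 2626 and below the floor), Batf (1168, 1524 and 386) and Rora (1800.5, 748 and 507) were also dimmest with TGFβ alone. Maf (4388, 351 and 1031) and Ahr (1861, 163 and 456) were instead dimmest with IL-6/IL-23, where Il1r1 was brightest. So were Ccr6 (387, 125 and 548) and Ccl20 (416, 45.4 and 343), and Irf4 stayed within 2-fold. The Th17 genes thus did not share 1 order either. Gata3, the Th2 transcription factor, was below the floor with IL-6/TGFβ and read 120 with IL-6/IL-23 and 258 with TGFβ. This was the order of Il18r1 after normalization, and other Th2 genes had other orders. Il4 read 199, 368 and 108 on the IL-6/TGFβ, IL-6/IL-23 and TGFβ arrays, and Il4ra 1160, 555 and 313. Il13 exceeded the floor with IL-6/IL-23 only, at 253. Il9 read 1976, below the floor and 1704, and Ccr8 read 538, below the floor and 868. Of 6 readable Th2 genes 1 was higher and 1 lower in IL-6/TGFβ than in TGFβ cells, of 8 readable ones 3 were higher and 3 lower than in IL-6/IL-23 cells, and 3 were higher and 3 lower in IL-6/IL-23 than in TGFβ cells. Of 10 regulatory T cell genes 1 was higher and 3 were lower in IL-6/TGFβ than in TGFβ cells, 4 were higher and 1 lower than in IL-6/IL-23 cells, and 1 was higher and 6 were lower for IL-6/IL-23 over TGFβ.

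The genes nearest in pattern were sought among the other 10170 genes above the floor on at least 1 array, by the root mean square difference of centred log2 levels over 3 arrays. For Il12rb1 they were Wdfy1 (0.037), Ndrg1 (0.050) and Slamf1 (0.057), and Slamf1, a T cell surface receptor gene, read 633 with IL-6/TGFβ, 1711 with IL-6/IL-23 and 487 with TGFβ. For Il12rb2 they were Fkbp11 (0.014), Trbv13-2 (0.019) and P4ha2 (0.020). The Il12rb2, Fkbp11 and P4ha2 values on the IL-6/TGFβ and TGFβ arrays were raised to the floor, so only their IL-6/IL-23 values were measured. For Il18r1 they were Socs5 (0.0096), Tmem158 (0.034) and Marcks (0.043). Socs5, a gene of the cytokine signalling suppressors, read 90.9, 133 and 211 on the IL-6/TGFβ, IL-6/IL-23 and TGFβ arrays. Those of Il18rap were AU016916 (0.010), Cd52 (0.020) and Tm4sf5 (0.026). Those of Il1r1 were Ier3 (0.032), Crem (0.057) and Crip2 (0.073), with the Il1r1 value on the TGFβ array raised to the floor. Those of Il1r2 were Impdh1 (0.0053), Spats2 (0.0097) and Zfp398 (0.010), with the Spats2 value on the TGFβ array raised to the floor. These distances rest on 3 arrays with no replicate.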

How the data were processed

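RNA was measured on 1 Affymetrix array per condition from biotin-labelled cRNA, per the labels' protocols. Per probe set the authors deposited 1 linear intensity. For its summarization, background correction and scaling the method is not given in the sources used here. Control probe sets (64 of 45101) were left out, and log2 intensities were quantile-normalized with limma 3.58.1 in R 4.3.3, which removes any real difference in total mRNA. GEO's platform annotation gave 1 symbol to 34945 probe sets, several to 932 and none to 9160. Gene identifiers of 34741 probe sets matched RefSeq's GRCm38.p6 table, which renamed 0 symbols. The probe set with the highest mean stood for a gene. The floor came from 121 probe sets of 84 tissue-restricted genes. The representation, the floor and the 2-fold rule could change the numbers, and 8 alternatives were tried. An alternative in which the dimmer probe set stands for Il18rap was added after seeing the data.

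The named genes were every receptor gene, up to 4 called genes per list and comparison, and the 3 genes nearest in pattern to each receptor gene. From the Th17 list every gene with a probe set was named, those other than Il17a after their values were seen. From the other helper T cell lists fewer were named. Il12a, Il12b, Il18, Il1rap, Jak2, Tyk2, Myd88, Mpeg1, Kit, the flanking genes and the markers were named after their values were seen. The genes and lists were chosen with earlier results of these data known. The normalization and calls were tested on simulated data. With 1 array per condition no test was possible, and the number of arrays limits the precision.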

Additional observations from a re-analysis of the deposited data

How the results depend on the processing

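Of 129 values of receptor genes under alternatives, 101 moved by less than the probe-set SD and 28 by more (16 of them without scaling). Of the called ratios among them, 0 changed sign. Values that could not be read under an alternative are not among the 129. With the floor at the 99th percentile these were both Il12rb2 ratios and the Il1r1 and Il1r2 ratios of IL-6/TGFβ over TGFβ. With probe sets averaged they were all ratios of Il1r1. Values that an alternative could not move, such as averages for genes with no further probe set, count among the 101. Median scaling changed no count of receptor genes. Leaving out probe sets shared between transcripts could not change one, because no receptor probe set is of that kind. In IL-6/TGFβ against TGFβ, 1 receptor gene was called higher (Il1r1) with the floor at the 90th percentile, with a pseudocount of 16 in place of the floor, and at 1.5-fold. In the same pair 2 were called lower (Il18r1 and Il18rap) without scaling, with probe sets of a gene averaged, at 1.5-fold, and with the dimmer Il18rap probe set, an alternative added after seeing the data. In IL-6/TGFβ against IL-6/IL-23, 0 were called lower without scaling and 1 (Il12rb1) with the floor at the 99th percentile. At 1.5-fold, and with the dimmer Il18rap probe set, 4 were called lower in this pair, Il18rap being the added gene. Averaging probe sets there called Il18rap in place of Il1r1, whose other probe set lies below the floor, and no longer called Il1r1 in IL-6/IL-23 against TGFβ. The cause of the other changes was not tested. In IL-6/IL-23 against TGFβ, 1 was called higher (Il12rb1) with the floor at the 99th percentile, 2 (Il12rb1 and Il1r1) without scaling, and 4 at 1.5-fold, Il1r2 being added. In this pair 2 were called lower (Il18r1 and Il18rap) without scaling, and 1 was called lower (Il18r1) at 1.5-fold. Over all genes, calls higher and lower in these 3 pairs numbered 279 and 223, 405 and 383, and 380 and 350. Without scaling they were 135 and 750, 1175 and 139, and 88 and 3466. With the floor at the 99th percentile they were 180 and 116, 263 and 217, and 226 and 218, and at 1.5-fold 823 and 690, 1068 and 1121, and 1078 and 895. Among genes above the floor on both arrays the ratio had a median of 0.02, -0.04 and 0.06, against -0.08, -0.21 and 0.12 after median scaling and -0.42, 0.43 and -0.86 without scaling. No paired analysis was possible because each condition has 1 array. Il12rb2, and Il1r1 on the arrays with TGFβ, lay near or below the floor, where signal over background limits the reading. With the floor at the 99th percentile, ratios of Il18r1, Il18rap and Il1r2 also became bounds. Il18r1 then stood at -1.05 and Il18rap at -0.34 for IL-6/TGFβ over TGFβ, and Il1r2 at 0.08 for IL-6/IL-23 over TGFβ.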
